A study of Olea europaea with 36 samples.

Results

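The contigs described here are the 150 olive transcript contigs that stood highest in dormant relative to active shoot tips of the variety Picual, out of 37449 contigs on a NimbleGen array. A contig was kept when the mean log2 intensities of active Picual and Arbequina lay within 1 of each other, and likewise those of Chiquitita and Arbosana, which left 28504 contigs. These were ranked by the lowest of the 3 dormant Picual arrays minus the highest of the 3 active Picual arrays, and the 150 largest scores were taken. The contigs were thus chosen by the values of the 6 Picual arrays and also by the means of Arbequina, Chiquitita and Arbosana. The difference between dormant and active Picual is given as a description, with no test.

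Total RNA came from shoot tips of adult field-grown olive trees (Olea europaea) harvested in late spring, and 12 groups were hybridized with 3 arrays each. The varieties of the olive breeding program (Picual, Arbequina, Arbosana and Chiquitita) were sampled as active meristems, and Picual was also sampled as dormant meristems. Of the 7 seedling pools, all of active meristems, 4 came from the Picual × Arbequina cross, with short (SILe) or long (LILe) internodes and a small (SmaD) or large (LarD) trunk diameter. The other 3 came from the Chiquitita × Arbosana cross, with a Chiquitita-like canopy (ChiCa), simple branching or complex branching. Chiquitita is itself a descendant of Picual × Arbequina. A pool mixed tissue of several seedlings before RNA extraction, so its 3 arrays do not show the spread between seedlings. The replicates of a group were separately harvested shoot samples, and nothing in the sources used here says that those of a variety came from different trees, so p-values measure only the spread between these samples. Dormant tips were taken from Picual only, so dormancy and the Picual genotype cannot be told apart in any comparison with another variety or pool. The labels of SmaD replicates 2 and 3 name short internodes in another field, and the titles were followed here.

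A shoot meristem is the small group of dividing cells at a tip from which leaves and stem are made. In woody plants many tips pass through rest periods. Resting tips stop cell division and often build up proteins of cold and drought protection while they stay able to resume growth. Whether any of the 150 contigs encodes such a protein is not known here, because the files do not pair contigs with gene names, and the members are named by contig number only. No sequence of a contig was used. In whole shoot tips, more cells of a type and more RNA per cell cannot be told apart.

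The deposited intensities ran from 6.74 to 62499, and the median of an array on the log2 scale lay between 9.25 and 9.64. Replicates of a group correlated at 0.947 to 0.992 over all contigs outside SILe. SILe replicate 3 stood apart, with correlations down to 0.839 within its group. Results that rest on it are given with and without it where both were computed. The receptor kinase gene CLV1, which limits the stem cell pool in Arabidopsis shoot meristems, has a named contig on the array (Contig_43041). Its intensity was 8830, 11892 and 11636 on the active Picual arrays and 10405, 4009 and 4256 on the dormant ones, well above the array medians in both. It is not a member of the group, and it did not meet the condition on Chiquitita and Arbosana.

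The 150 contigs were moderately bright in dormant Picual and mostly dim in active Picual. Their median intensity, over the group geometric means, was 2005 in dormant and 282 in active tips. The fold of dormant over active ran from 3.09 to 110, with a median of 5.96 and quartiles of 4.46 and 9.09. At least 4-fold was reached by 128 contigs, at least 8-fold by 46, at least 16-fold by 10 and at least 32-fold by 4. In limma's fit 148 of the 150 passed an adjusted p under 0.05 and 2-fold as higher in dormant tips, where 2.59% of all contigs did, but this contrast chose them and nothing is read from the count.

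Contig_1874 had the largest score. Its intensity was 8293, 5406 and 7405 on the dormant arrays and 74.7, 42.4 and 78.7 on the active arrays, a 110-fold difference of geometric means. All 3 dormant arrays lay far above every other array, of which the highest, SILe replicate 3, read 476. Contig_2579 came next, at 2441, 6530 and 6866 in dormant tips against 68.8, 74.7 and 79.8 in active tips (64.4-fold). Its lowest dormant array was dormant replicate 1, and SILe replicate 3 was again the highest array of the other groups, at 599. Contig_17197 read 799, 766 and 1527 in dormant tips and 32.2, 29.5 and 23.7 in active tips (34.6-fold). The median of the other 30 arrays was 60.5 for Contig_1874 and 31.4 for Contig_17197, dim levels at which a fold depends on background that was not examined.

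The next scores had other levels. Contig_59016 was a dim contig throughout, at 278, 260 and 252 in dormant and 16.1, 12.2 and 15.1 in active tips. Contig_31291 was bright in both states, with 9458, 16954 and 18861 in dormant and 935, 786 and 764 in active tips (17.5-fold). Its other 30 arrays ran from 476 through a median of 1060 to 2551, so that the difference does not start from a dim level. The remaining contigs of the 12 largest scores, Contig_9454, Contig_10318, Contig_49054, Contig_18757, Contig_36498, Contig_15846 and Contig_7420, were 12-fold to 17.9-fold higher in dormant tips. Among all 150, 8 contigs exceeded a mean intensity of 10000 in dormant tips. The brightest was Contig_4770, at 39262, 43926 and 47533 in dormant tips and 12271, 6587 and 4889 in active tips, with the other 30 arrays between 5608 and 30939. At the dim end 18 contigs had an active mean under 50 and 41 lay among the 25% of contigs that were dimmest in active tips.

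**Figure D1:**
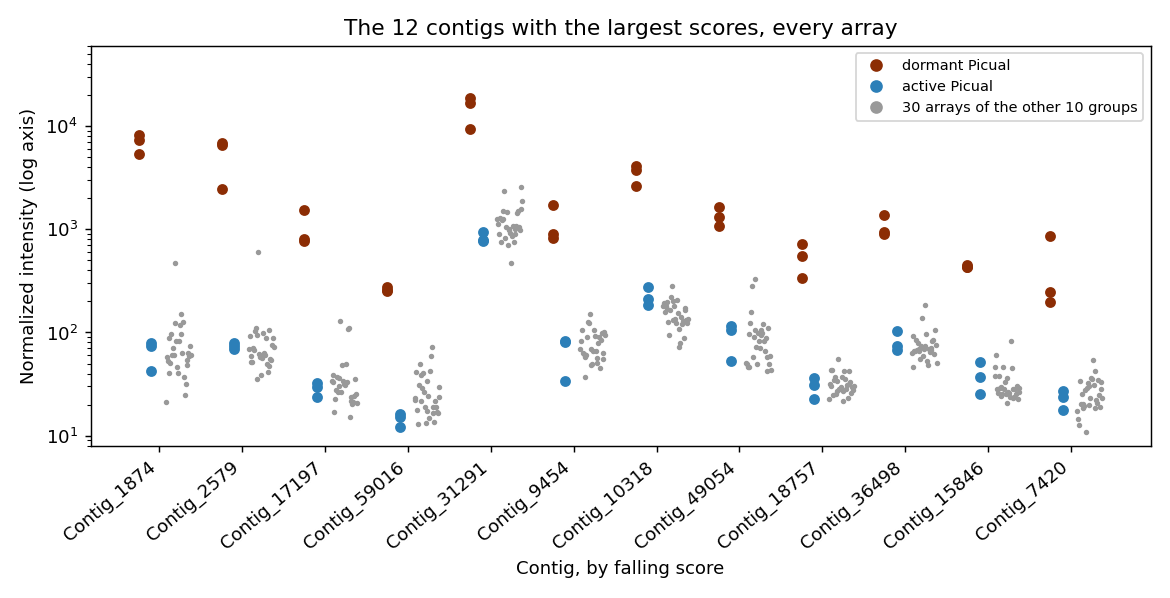
Normalized intensity (log axis) of the 12 contigs with the largest scores, with 1 point per array: dormant Picual, active Picual and the 30 arrays of the other 10 groups. The dormant points sit apart from all others in each contig, and the isolated grey points of Contig_1874 (476) and Contig_2579 (599) are SILe replicate 3.

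The 3 dormant samples did not carry every contig to the same height. The highest dormant array was at a median of 1.62 times the lowest over the 150 contigs, against 1.39 times for the active arrays, and 100 contigs stayed under 2-fold. The dormant arrays also spread more over all contigs, with a median SD of 0.42 on the log2 scale against 0.35 for the active arrays. The members had 0.36 and 0.25, and their score favours a small spread in both states. For 8 members the dormant arrays spanned more than 4-fold, which the active arrays did for 0. The share over all contigs was not counted. Contig_2035 read 120, 2249 and 2801 on dormant replicates 1, 2 and 3 and 40.7, 29.9 and 37.0 in active tips. Contig_6289 went the other way, with 5922, 406 and 542 in dormant tips and 91.1, 105 and 80.3 in active tips. In both contigs dormant replicate 1 was the odd sample, low in the former and high in the latter, and they were the 2 members that did not pass limma's test of dormant against active tips. Dormant replicate 1 was the lowest dormant array for 73 contigs and the highest for 58. Replicate 2 was lowest for 50 and highest for 22, and replicate 3 was lowest for 27 and highest for 70.

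The score used the Picual arrays only, but the conditions on the varieties also used Arbequina, Chiquitita and Arbosana. The remaining 30 arrays show where else these contigs were high, with Arbequina already held within 2-fold of active Picual. Of these arrays, the 21 of the pools did not enter the rule. All 3 dormant arrays exceeded all 33 other arrays for 136 of the 150 contigs, and for 3.40% of all contigs, a count that the rule favours because it already set the dormant arrays above the active ones. The lowest dormant array was at least 2-fold above the highest of the 33 for 64 members, where 0.358% of all contigs (134) met this. The rule favours this count too. Even in the last member, Contig_63588, the lowest dormant array was 2.62-fold above the highest active Picual array. The 2 shares are thus not a test of the members. With SILe replicate 3 left out, the dormant arrays exceeded all the rest for 142 members. The share over all contigs was not counted for that setting, so nothing is read from this number about the members. The largest gap was that of Contig_1874 (11.4-fold), followed by Contig_10318 (9.27-fold), Contig_21928 (6.82-fold), Contig_17089 (6.75-fold), Contig_18757 (6.02-fold) and Contig_17197 (5.87-fold). Contig_17089 was steady everywhere else: its dormant arrays read 3518, 3050 and 4185, its active arrays 336, 432 and 232, and the other 30 arrays ran from 205 through a median of 305 to 452. Contig_21928 read 2348, 3234 and 3120 in dormant tips and 308, 320 and 204 in active tips, with the other 30 arrays from 89.6 through 184 to 344.

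No other group came near this count over the whole array. The number of contigs for which the 3 arrays of a group exceeded all 33 others was 1275 for dormant Picual, 193 for Arbequina and 169 for Arbosana. It was lower in active Picual, and 26 or fewer in Chiquitita and in each of the 7 pools. With a gap of at least 2-fold, dormant Picual had 134 such contigs and no other group more than 5.

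**Figure D2:**
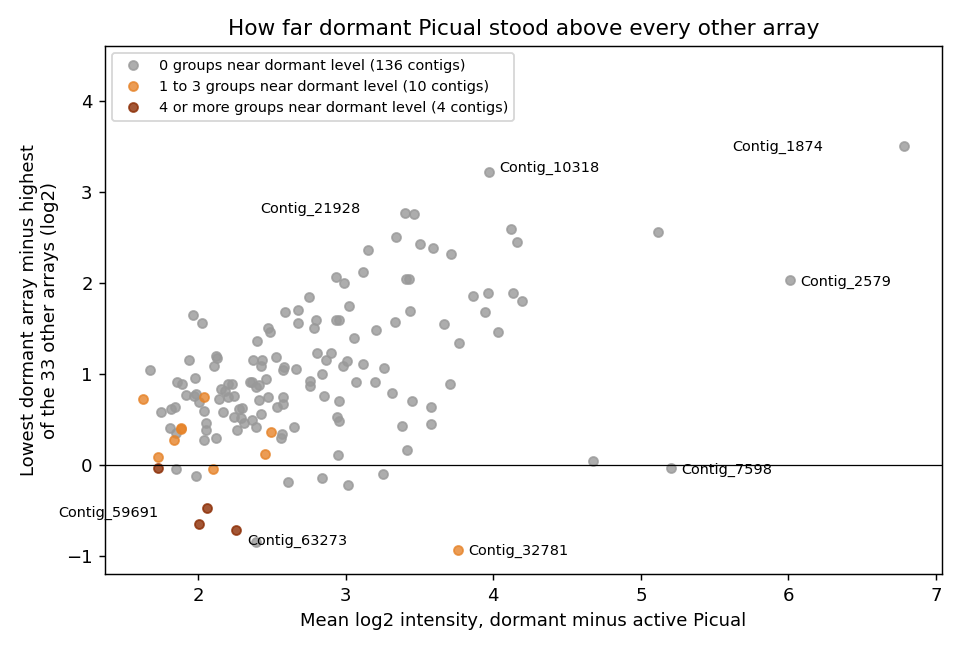
For each of the 150 contigs, the mean log2 intensity of dormant minus active Picual (horizontal) and the lowest dormant array minus the highest of the 33 other arrays (vertical, log2), coloured by how many of the 10 other groups had a mean within 2-fold of the dormant mean or above it. Points above the horizontal line are the 136 contigs whose dormant arrays exceeded every other array, and the 4 contigs with 4 or more such groups lie below it.

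To place the other groups, each was given a position between active Picual (0) and dormant Picual (1), its mean log2 intensity minus the active mean, divided by the dormant minus the active mean. For the 150 contigs, kept only where Arbequina was within 2-fold of active Picual, the median position stayed close to active Picual in all 10 groups. It was lowest in Chiquitita, at -0.02 (SD of the array medians 0.08, n = 3 arrays), and highest in SILe, at 0.17 (SD 0.10). Between them lay simple branching (0.05), LILe (0.06), Arbosana (0.07), LarD (0.08), ChiCa (0.08), Arbequina (0.10), complex branching (0.11) and SmaD (0.11), each with an SD between 0.02 and 0.09. Neighbours in this order did not differ beyond their spread. The active Picual arrays, which set 0, entered the rule and the rule took contigs in which they were low, so a position slightly above 0 is no evidence of a shift toward dormancy. The low position of Arbequina was largely set in advance by the rule. Without the variety conditions the median positions of Arbosana and Arbequina were higher, as given below under processing.

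Single arrays ran from -0.08 (Chiquitita replicate 3) to 0.29 (SILe replicate 3), and without the latter the highest was SmaD replicate 3, at 0.15. The 3 SILe arrays were at 0.09, 0.14 and 0.29, and without the third the median position of SILe was 0.13. The 3 Chiquitita arrays were at 0.08, -0.01 and -0.08 and those of simple branching at 0.09, 0.07 and -0.03, so that single groups covered much of the range seen among groups. The 150 contigs chosen in the same way for being lost in dormant Picual gave medians of the same size, from -0.03 in Chiquitita to 0.13 in SILe.

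**Figure D3:**
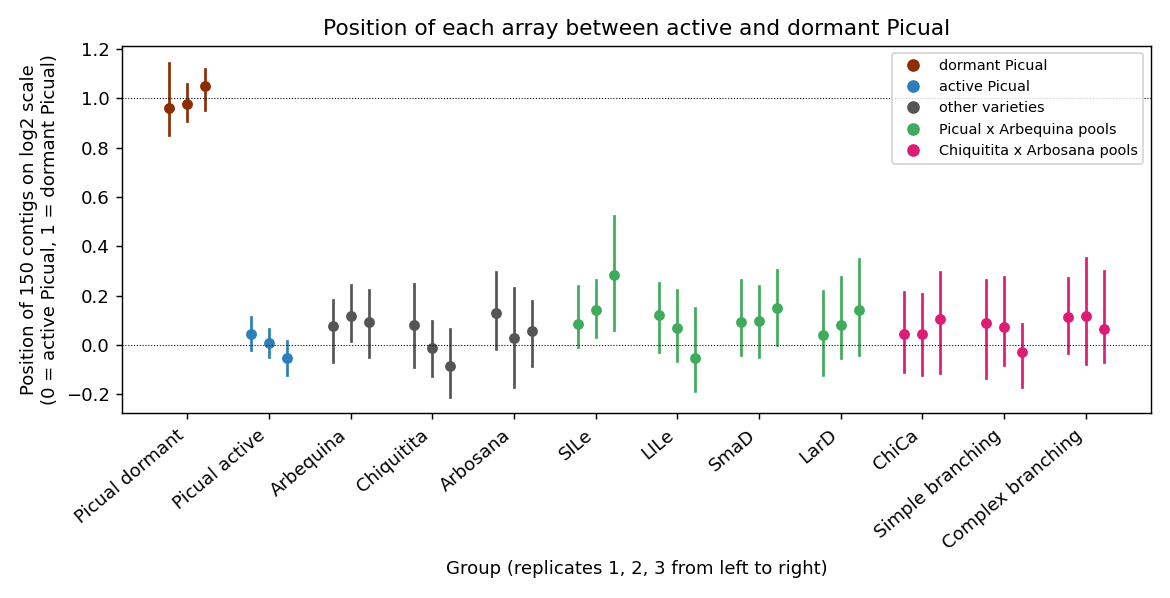
Median position (points) and quartiles (bars) of the 150 contigs on each of the 36 arrays, on the log2 scale, where 0 is active and 1 is dormant Picual. The 30 arrays of the other groups have medians between -0.08 and 0.29, and the dormant arrays between 0.96 and 1.05.

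Contig by contig, the median position over the 10 groups had quartiles of -0.04 and 0.20, was below 0 for 50 contigs and above 0.25 for 24. For 85 contigs all 10 group means lay within 2-fold of the active Picual mean. The lowest median positions were those of Contig_67977 (-0.40), Contig_16016 (-0.29), Contig_21772 (-0.28) and Contig_6221 (-0.28), for which active Picual was higher than most other active groups. Contig_16016 had means of 802 in dormant and 119 in active Picual, 109 in Arbequina and between 44.1 and 85.8 in the other 9 groups. Arbequina was the highest of the 10 groups for 29 contigs and SILe for 29, complex branching for 26 and LarD for 24. Without SILe replicate 3, SILe was the highest group for 13. Neither the counts of highest groups nor the count of 85 was made over all contigs, so nothing is read from them about the members.

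A mean within 2-fold of the dormant mean, or above it, was reached by no other group for 136 contigs, by 1 to 3 groups for 10 and by 4 or more for 4. The 4 were Contig_63408 (8 groups), Contig_63273 (7), Contig_8303 (4) and Contig_59691 (4). Complex branching was the highest of the 10 groups in each of them. Of all 14 contigs with such a group, the highest group was a pool of the Chiquitita × Arbosana cross for 8, a pool of the Picual × Arbequina cross for 5 and a variety for 1. The rule held Arbequina within 2-fold of active Picual, so Arbequina could reach the dormant level only for contigs with a small dormant excess. It also set the dormant arrays above active Picual, which favours contigs with no such group. None of the counts in this paragraph was made over all contigs, so nothing is read from them about the members.

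Contig_63273 read 2666, 2451 and 3976 in dormant and 704, 640 and 529 in active Picual. Its Arbequina arrays (844, 676 and 593) and Arbosana arrays (742, 890 and 695) were as low as active Picual, whereas complex branching read 2373, 4031 and 3130 and LarD 2282, 2768 and 2641. The means of all 7 pools, from 1858 in LILe to 3178 in complex branching, exceeded those of active Picual and Arbequina, the parents of 4 of them. Within groups it varied widely: Chiquitita gave 2387, 605 and 833, and simple branching 3031, 2076 and 826. Contig_59691 had the same high and low samples, with 1846, 667 and 368 in Chiquitita and 1563, 1776 and 690 in simple branching. Its complex branching arrays (1782, 2009 and 2270) overlapped the dormant arrays (2122, 1444 and 1836), and active Picual read 389, 423 and 529.

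Contig_32781 was the member with the widest range over the 10 groups, 7.21-fold between ChiCa and Arbequina. It read 3524, 7924 and 9864 in dormant and 784, 428 and 330 in active Picual. ChiCa, at 4614, 4867 and 6714, lay within the dormant range, and complex branching read 3782, 6524 and 2747. Arbequina stayed at 752, 896 and 598. Contig_8303 and Contig_63408 had smaller dormant excesses. In complex branching Contig_8303 read 560, 783 and 791, which overlapped the dormant arrays (dormant 981, 614 and 767, active 219, 182 and 159). Contig_63408 read 3286, 3788 and 4455 there, with only the highest of these within the dormant range (dormant 4347, 4625 and 5170, active 1335, 1329 and 1605).

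**Figure D4:**
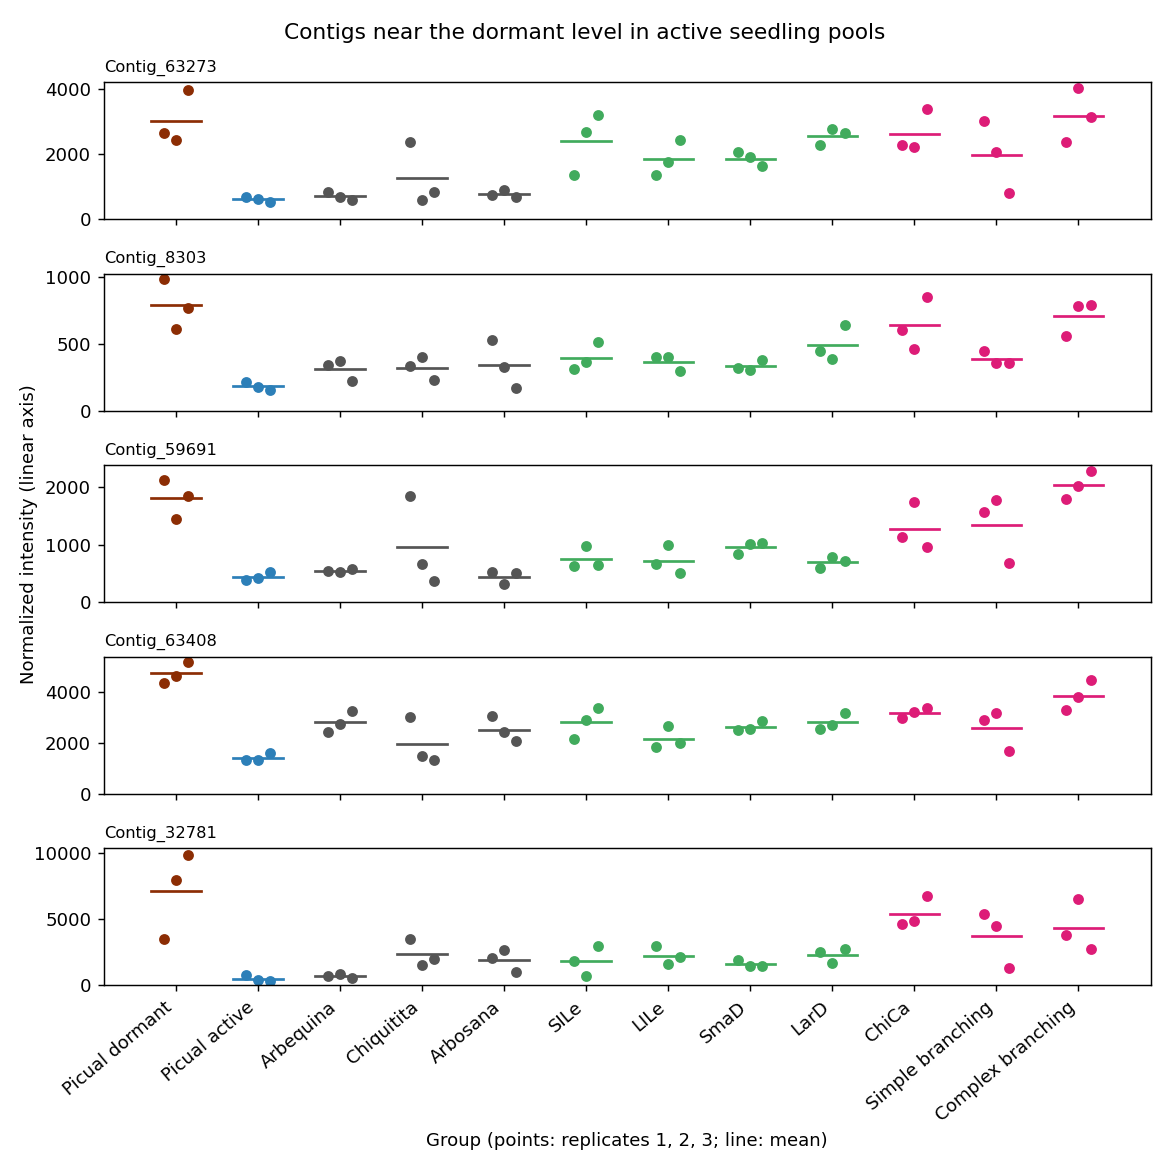
Normalized intensity (linear axis) of 5 contigs in all 12 groups, with 1 point per array and a line at the group mean. Complex branching means lie close to the dormant mean for the first 4 contigs, and the ChiCa mean does for Contig_32781. Chiquitita replicate 1 is high and simple branching replicate 3 is low within their groups for Contig_63273 and Contig_59691.

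The seedling pools did not enter the rule, so differences among them were tested with limma on the whole array. A call meant a 2-fold or larger difference with an adjusted p under 0.05. The pairs of pools with opposite phenotypes were compared first. Between SILe and LILe 0 members were called, where 0.00801% of all contigs (3) were. At an unadjusted p under 0.05 there were 17 members (11.3%, against 2.69% of all contigs), and the smallest adjusted p was 0.99. The methods' t-test (no adjustment, at least 2-fold), run here on log2 values, called 6 members (4%, against 0.681% of all contigs). Between SmaD and LarD 0 members were called (0.0134% of all contigs), 14 had an unadjusted p under 0.05 (9.33%, against 13.1% of all contigs) and the smallest adjusted p was 0.21. The methods' t-test called 3 members (2%, against 2.71%), so both shares were below those of all contigs. Between complex and simple branching 0 members were called (0.0561% of all contigs), 22 had an unadjusted p under 0.05 (14.7%, against 7.12% of all contigs) and the smallest adjusted p was 0.30. The methods' t-test called 1 member (0.667%, against 1.04%).

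Short of a call, most members had higher means in SILe than in LILe and in complex than in simple branching. The log2 difference of SILe minus LILe was above 0 for 123 of the 150 contigs (82.0%, against 47.6% of all contigs), with a median of 0.32 against -0.02. Without SILe replicate 3 it was above 0 for 108 contigs (72.0%, against 52.1%), with a median of 0.18 against 0.02. Without LILe replicate 3, the array with the lowest position in its group, it was above 0 for 102 contigs (68.0%, against 47.6%). The median was then 0.22 against -0.02. Contig_9454 had means in this direction that differed by 1.28 ± 0.30 (SE) on the log2 scale, with an adjusted p of 0.99. The difference of complex minus simple branching was above 0 for 105 contigs (70.0%, against 49.0%), with a median of 0.20 against -0.01. Without simple branching replicate 3, the array with the lowest position in its group, it was above 0 for 94 contigs (62.7%, against 49.1%), with a median of 0.10. Members differ from all contigs in level and were not set against contigs of like level, and contigs on the same arrays are not independent, so these shares carry no test. SmaD minus LarD was above 0 for 85 contigs (56.7%, against 53.0%), with a median of 0.05 that became -0.03 without LarD replicate 1.

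Between the crosses, taken as the mean of the 3 Chiquitita × Arbosana pools minus the mean of the 4 Picual × Arbequina pools, limma called 6 members. The p-values rest on the spread of arrays within pools and not on the spread between pools of a cross. The pools of each cross were also chosen for other traits than those of the other cross. The cross and whatever else differs between these sets of pools cannot be told apart. Over all contigs 3.15% were called (6 of 150 members is 4%), 1.66% as higher and 1.49% as lower in the Chiquitita × Arbosana pools, and of the members 1 was higher and 5 were lower. The share of members called is near that of all contigs. Without the 2-fold minimum, 29 members passed (19.3%, against 11.7% of all contigs), 12 higher and 17 lower. The median log2 difference of the members was -0.09, against 0.00 over all contigs.

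Contig_34605 had the smallest adjusted p. Its 9 arrays of Chiquitita × Arbosana pools, 164, 181 and 116 in ChiCa, 185, 282 and 189 in simple branching and 159, 142 and 162 in complex branching, lay mostly below the 12 arrays of the other cross. Those read 385, 296 and 487 in SILe, 439, 402 and 264 in LILe, 326, 377 and 412 in SmaD and 407, 395 and 376 in LarD, and overlap was limited to simple branching replicate 2 and LILe replicate 3. The difference was 2.20-fold, -1.14 ± 0.13 (SE) on the log2 scale, with an adjusted p of 3.29e-05, and the call held with each of the 21 arrays left out in turn. The parents did not show the same order: Chiquitita had a mean of 192 and Arbosana of 311, against 251 in active Picual and 307 in Arbequina. Both crosses stood far under dormant Picual, at 1684, 882 and 1545.

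Contig_43406 was 2.26-fold lower in the Chiquitita × Arbosana pools (adjusted p 0.015) and also kept its call with every array left out. Its lowest pool was complex branching, at 81.6, 74.9 and 144, and simple branching was split, at 118, 557 and 98.0. Contig_42008 was 2.11-fold lower (adjusted p 0.0014), with a call lost by a narrow margin of fold without simple branching replicate 1, and Contig_17197 was 2.11-fold lower (adjusted p 0.016), with its call lost without SILe replicate 2. Contig_1874, the contig with the largest score, was 2.02-fold lower (adjusted p 0.025), and its call was lost in 8 of 21 such fits, that without SILe replicate 3 among them. Contig_32781 was the member called as higher, 2.17-fold with an adjusted p of 0.014, and lost its call without SILe replicate 2 or without simple branching replicate 1. In the same 6 contigs dormant Picual stood 4.12-fold (Contig_43406) to 110-fold (Contig_1874) above active Picual.

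**Figure D5:**
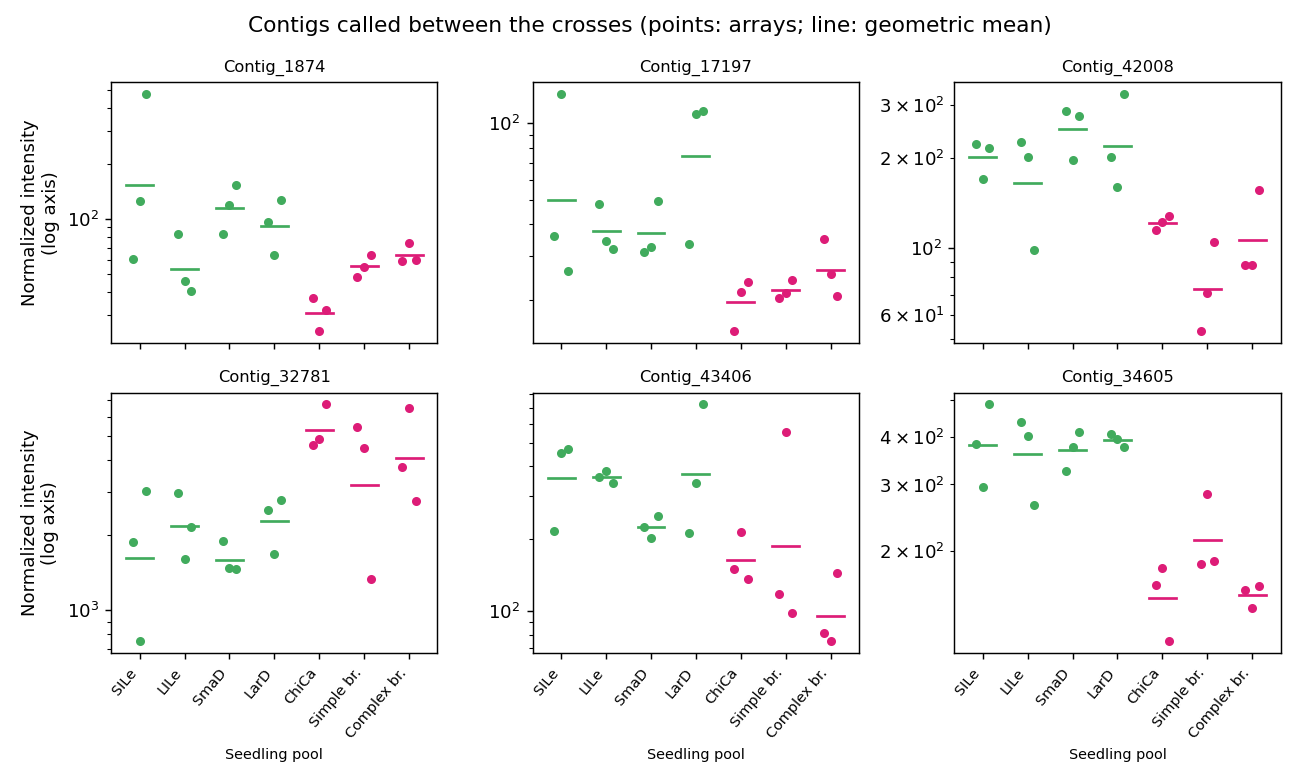
Normalized intensity (log axes that differ between panels and cover only part of the range) of the 6 members called between the crosses, with 1 point per array and a line at the geometric mean of each pool. The 3 pools on the right, of Chiquitita × Arbosana, are lower than the 4 of Picual × Arbequina for 5 contigs and higher for Contig_32781.

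Any difference among the 7 pools was tested with limma's F test, where the highest and lowest pool also had to be 2-fold or more apart. It called 6 members (4%), where 3% of all contigs were called, which is again near the background. These were Contig_67977, Contig_34605, Contig_52307, Contig_59016, Contig_32196 and Contig_42008, and Contig_34605 and Contig_42008 were called in both tests. The first 3 kept their call with each array left out, and Contig_59016 lost it in 3 of 21 fits, Contig_32196 in 8 and Contig_42008 in 11.

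Contig_67977 differed most, 4.55-fold between SILe and ChiCa (adjusted p 0.0020). It read 950, 1558 and 1687 in SILe, 571, 531 and 361 in LILe and 362, 322 and 228 in ChiCa. SILe exceeded every other active group on all 3 arrays except active Picual replicate 1 (951 beside 759 and 798), and dormant Picual read 3372, 2578 and 2890. Contig_52307 was highest in LarD, at 2037, 2995 and 2597, and lowest in simple branching, at 1139, 1171 and 1151 (2.18-fold, adjusted p 0.0028). Its LarD mean came within 2-fold of the dormant arrays, which read 3936, 4507 and 4449. Contig_59016 was at 42.6, 59.3 and 72.3 in LarD and reached at most 49.4 (Arbosana replicate 1) on the other arrays of active tips. Contig_32196 ran from a mean of 447 in simple branching to 1044 in SILe (adjusted p 0.030), and Contig_67576, with an adjusted p of 0.019, missed the 2-fold minimum.

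The score that ended the list separated nothing. The last 3 members, Contig_56584, Contig_62460 and Contig_63588, had scores of 1.40, 1.39 and 1.39, and the first 3 contigs left out, Contig_59340, Contig_42415 and Contig_39997, had 1.38 each. Contig_59340 was 5.53-fold higher in dormant tips, more than the 3.09-fold of Contig_56584.

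None of 14 contigs that the study named or measured by RT-qPCR is a member, and none met both conditions on the varieties. Each of them differed by more than 2-fold between Chiquitita and Arbosana, which the rule did not allow. Their absence was thus fixed in advance and says nothing about dormancy. Contig_40482, named for the F-box gene EDL2, had the highest score of the 14, at 0.71, with 1063, 625 and 1179 in dormant and 383, 383 and 241 in active Picual. Contig_44219, named for the replication factor CDC45, went the other way, with 529, 688 and 402 in dormant and 1509, 1974 and 2424 in active Picual. Among the study's longer list of candidate contigs, 1 was a member, Contig_59016. Most of that list had been selected for a difference between Chiquitita and Arbosana, which the rule limited, so little overlap was possible.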

How the data were processed

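Labelled cDNA of 36 shoot tip samples had been hybridized to 60-mer NimbleGen arrays of 37449 contigs. The authors deposited 1 intensity per contig and array, normalized with RMA (version not given in the sources used here) and left on a linear scale, and log2 was taken. Intensities before normalization stand in 36 further columns under array codes that match no label, and these were not used, so signal over background was not examined. The precision is limited by 3 arrays per group.

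Contigs were ranked by the rule given in the report (Python 3.11.15, numpy 2.4.6, pandas 2.3.3, matplotlib 3.10.9). Pools were compared in R 4.3.3 with limma 3.58.1 (lmFit and eBayes): each pair of opposite pools was fitted with a related group (Chiquitita, or ChiCa for branching, 9 arrays), and the crosses and the F test on the 21 pool arrays. P-values were adjusted by Benjamini and Hochberg over all 37449 contigs, with no filter on dim contigs and no covariate. A call needed a 2-fold change and an adjusted p under 0.05. The fits were tested on simulated data.

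Contigs named in the text were the 12 largest scores, the 6 largest gaps, the 6 highest and 4 lowest median positions, the called members, those at the threshold and 14 contigs named in the study. Contigs named for the spread of their dormant arrays, their brightness or a place just outside these limits were chosen after their values were seen. The members, lists and tests were chosen with earlier results of these data known. Alternatives covered the test, the arrays in the fit, the replicate number as a block, normalization, dim contigs, the fold minimum, single arrays and the member rule.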

Additional observations from a re-analysis of the deposited data

How the results depend on the processing

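Calls between opposite pools stayed at 0 members with every single array left out and with only the compared groups, trend and robust variances, quantile normalization, arrays centred on their medians, no contigs of the dimmest 25%, no fold minimum, 75 or 300 members. The exceptions were the methods' t-test, with 6 (SILe and LILe), 3 (SmaD and LarD) and 1 (complex and simple branching), 1 fit over all 36 arrays, with 1 for SILe and LILe, and the rule without the variety conditions, with 2 for the branching pools. Over all contigs the t-test called 255, 1015 and 388, and the fit over 36 arrays 26, 21 and 35, against 3, 5 and 21. The t-test took log2 values and folds of log2 means. The study took a ratio of means and reported fewer genes for the internode and trunk diameter pools. Between the crosses the 6 members became 29 with no fold minimum (4399 of all contigs), 11 among 300 scores and 20 without the variety conditions, and 3 to 8 with an array left out, lowest without simple branching replicate 1. Among the 7 pools the 6 members became 29 by 1-way analysis of variance without adjustment (3693 of all contigs), 11 in the fit over 36 arrays, 2 among 75 scores, 14 among 300 scores and 14 without the variety conditions. They became 3 to 13 with an array left out, highest without SILe replicate 3 (2140 of all contigs) and lowest without ChiCa replicate 1. The cause of these changes was not tested. With the replicate number as a block the members called were 0, 0, 0, 6 and 10. The numbers were not taken to pair the samples: same-numbered arrays correlated above 0.1 in all their deviations for 2 of 21 pairs of pools (SILe with ChiCa, SmaD with simple branching), and each array went best with its own number for 0. Of the 150 contigs, 129 stayed after quantile normalization, 106 with group means as the score and 51 without the variety conditions, under which the median position of Arbosana was 0.25 and that of Arbequina 0.23. The position of Chiquitita became 0.03 without its replicate 3. Dim levels in active tips limit the size of folds.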

Other observations

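The 2 conditions on the varieties kept out 60 contigs whose dormant arrays were at least 2-fold above all 33 other arrays. The widest gap among those with the largest scores was that of Contig_34438, with 5773, 6881 and 7659 in dormant tips and 88.4, 100.3 and 87.0 in active tips, 33.3-fold between the lowest dormant array and the highest of the rest. It was left out because active Picual (91.9) exceeded Arbequina (39.95) by more than 2-fold, both at dim levels. Contig_16371 read 1310, 5666 and 5321 in dormant and 14.4, 11.7 and 11.6 in active tips, with a gap of 20.7-fold, and was left out for its Arbequina mean of 30.04. Contig_30597 had the largest score of the array, at 3869, 13579 and 19319 in dormant and 33.6, 33.3 and 25.9 in active tips. It failed both conditions, which compared active Picual (30.9) with Arbequina (135) and Chiquitita (60.4) with Arbosana (261).

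Contig_39596 and Contig_3907 were kept out for another pattern. Contig_39596 had means of 2514 in dormant and 42.5 in active Picual, but 3556 in Arbequina, 2884 in Arbosana, 2838 in SILe and 54.0 in Chiquitita. Contig_3907 had means of 1660 in dormant and 22.7 in active Picual, 1035 in Arbequina and 8767 in complex branching. Both contigs were thus at or above the dormant level in some groups of active tips.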
